A study of Homo sapiens with 24 samples.

Results

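The 9 genes described here, *SMAD7*, *SMAD6*, *SKIL*, *SKI*, *PMEPA1*, *BAMBI*, *TGIF1*, *SMURF1* and *SMURF2*, encode proteins that restrain transforming growth factor beta (TGFb) signalling. They were found on the arrays as the non-control probes whose transcript accession belongs to one of these genes, which gave 11 of 58201 probes and 9 of 31204 named genes, with 2 probes each for *PMEPA1* and *TGIF1* and 1 for each of the others. RNA was measured on 24 single-colour Agilent expression arrays, 12 from PLC/PRF/5 and 12 from SNU-449, both established cell lines derived from human hepatocellular carcinoma (HCC). Of each line, 3 independent cultures made up each of 4 groups, and all cells were deprived of serum overnight before treatment: control cells, cells given TGFb (recombinant human TGFb1, 1 ng/mL), cells given galunisertib (LY2157299, a small-molecule inhibitor of the type I TGFb receptor kinase, 10 µM) and cells given TGFb + galunisertib, each for 16 h. Each line is a single cell line studied at 1 dose of each agent and 1 time. In bulk RNA, fewer cells that express a gene and less of its RNA per cell cannot be told apart.

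TGFb binds a pair of serine/threonine kinase receptors, the type I receptor phosphorylates SMAD2 and SMAD3, and these enter the nucleus with SMAD4 and change transcription. The pathway switches on several of its own inhibitors. *SMAD7* and *SMAD6* encode inhibitory SMADs, which bind the receptors and keep the signalling SMADs from being used, SMAD7 acting on both the TGFb and the BMP branch and SMAD6 mainly on the BMP branch. *SKIL* (SnoN), *SKI* and *TGIF1* encode nuclear co-repressors that bind SMAD complexes on DNA. *PMEPA1* encodes a membrane protein that sequesters SMAD2 and SMAD3, *BAMBI* a pseudoreceptor that resembles a type I receptor without its kinase, and *SMURF1* and *SMURF2* are ubiquitin ligases that, brought to the receptors by SMAD7, promote their degradation. In liver, this feedback is best known from *SMAD7*, which limits TGFb signalling in hepatocytes and in HCC cells.

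The promoters shown are those of the 4 members called lower with galunisertib alone in SNU-449. SMAD complexes are known to bind short motifs in such promoters. They are the 250 bases before an annotated start, from RefSeq on GRCh38.p14, on the strand of the gene, with motif matches in capitals. A window was found for 8 of the 9 members, 19 windows in all, and none for *SKI*. *SMAD7* had 3 windows and *PMEPA1* 4, and 1 of each is printed.
*SMAD7*, chr18:48950966-48951215, minus strand: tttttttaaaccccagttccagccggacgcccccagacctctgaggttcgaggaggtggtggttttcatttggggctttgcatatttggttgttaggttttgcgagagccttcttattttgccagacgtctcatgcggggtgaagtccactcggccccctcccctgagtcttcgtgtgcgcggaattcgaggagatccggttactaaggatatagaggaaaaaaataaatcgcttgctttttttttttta
*SMAD6*, chr15:66701986-66702235, plus strand: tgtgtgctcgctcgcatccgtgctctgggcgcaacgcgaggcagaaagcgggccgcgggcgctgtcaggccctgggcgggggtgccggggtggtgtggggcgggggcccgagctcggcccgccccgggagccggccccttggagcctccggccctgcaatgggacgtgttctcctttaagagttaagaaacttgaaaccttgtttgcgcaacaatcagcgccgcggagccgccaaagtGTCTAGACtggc
*SKIL*, chr3:170357465-170357714, plus strand: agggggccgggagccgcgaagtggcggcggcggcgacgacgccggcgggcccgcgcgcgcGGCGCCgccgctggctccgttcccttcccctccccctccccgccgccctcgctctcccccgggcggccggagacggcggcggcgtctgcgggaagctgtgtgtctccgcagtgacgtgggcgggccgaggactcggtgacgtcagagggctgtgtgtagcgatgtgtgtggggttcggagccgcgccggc
*PMEPA1*, chr20:57710578-57710827, minus strand: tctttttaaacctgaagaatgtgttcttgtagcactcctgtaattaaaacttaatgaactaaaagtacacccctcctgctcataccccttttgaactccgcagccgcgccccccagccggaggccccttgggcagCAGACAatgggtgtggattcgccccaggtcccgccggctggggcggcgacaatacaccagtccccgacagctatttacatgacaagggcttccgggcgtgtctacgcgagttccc
The SMAD palindrome GTCTAGAC was in 1 of the 19 member windows, that of *SMAD6*, and in 0.182% of 35116 windows of this length over all genes. The SMAD box CAGACA was in 4 member windows, 1 of *PMEPA1* and 3 of *TGIF1*, against 13.6% of all windows. The *PMEPA1* window printed is the one that holds this box. The GC-rich SMAD motif GGCGCC was in 3, of *SKIL*, *PMEPA1* and *BAMBI*, against 16.4%, and the AP-1 motif TGANTCA in 1, of *TGIF1*, against 6.57%. Both strands were searched and no match overlapped a match of another motif. None of the 3 *SMAD7* windows held any of these motifs, which says nothing of sites outside them.

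All values below are log2 levels, the processed signal of a probe over the 75th percentile of its array, so that 0 is the level of the 75th percentile, and a difference of 1 is a 2-fold change. Values under 5.70% of that percentile were set to this floor, a log2 of -4.13, and have no order among themselves. Levels of different probes cannot be set against each other. The 75th percentile lay between 145 and 261 in PLC/PRF/5 and between 195 and 262 in SNU-449, and 41.6% to 49.6% of probes were well above background on an array. The 3 replicate numbers are also the 3 slides. A group always had the same place on a slide, with TGFb arrays in another row than those without it, so place on the slide and treatment cannot be told apart. Of 8 hepatocyte markers, 8 were well above background on all PLC/PRF/5 arrays. In SNU-449 4 were on all arrays (*APOA1*, *TTR*, *SERPINA1* and *FGB*), *ALB* was on 2 and *APOB*, *HNF4A* and *TF* were on none. All 4 mesenchymal markers were on every array of both lines, and of 4 epithelial markers 4 were on all arrays of PLC/PRF/5 and 2 on all of SNU-449. Of leukocyte and endothelial markers, *PECAM1* was on no array of either line, while *CD79A* and *VWF* were on all. *PTPRC* was on 12 PLC/PRF/5 and 11 SNU-449 arrays, *CDH5* on 8 and 5, and *CD3E* on 4 and 0. Summed levels of the 3 leukocyte markers were 14.8 to 32.8 times the 75th percentile in SNU-449 and 13.4 to 43.7 in PLC/PRF/5. The part of these markers in the results was not tested.

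The first question was whether TGFb raised its own inhibitors in each line. In SNU-449, 7 of the 9 members rose with TGFb and 0 fell (Benjamini-Hochberg adjusted p below 0.05, limma), while 5.72% of the 16100 genes tested rose. The count was 3 to 5 with any 1 array left out and 3 with arrays scaled to their median. With the replicate number as a block, *TGIF1* was not called (adjusted p = 0.064). For PLC/PRF/5, 8 members were measured well enough to be tested, *SMURF2* being close to the floor, and 5 rose and 0 fell, against 6.27% of 16682 genes (3 to 5 with any 1 array left out, and 3 with arrays scaled to their median or not scaled). One of these, *PMEPA1*, entered the tests in PLC/PRF/5 through the groups in which it is high and had to differ, so 4 of the other 7 is the count to read there. With the replicate number as a block, *BAMBI* was not called in that line (adjusted p = 0.064). All 9 members in SNU-449 had their 3 TGFb arrays above their 3 control arrays, as 20.7% of all genes did, and all 8 tested in PLC/PRF/5 did so, against 16.1%. The median difference over the 9 members in SNU-449 was 0.65, beside 0.02 over all genes. The figure legends of the study use stricter limits for the lines and for galunisertib, a fold above 2 and an unadjusted p below 0.001. The legends of its galunisertib gene lists give a looser p. At the figure limits, limma passed 0 members with TGFb in SNU-449 (2.33% of genes) and 2, *SKIL* and *PMEPA1*, in PLC/PRF/5 (1.1%). By a plain two-sample t-test *PMEPA1* passed them in SNU-449 too.

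Galunisertib added to TGFb had the opposite direction. In SNU-449, 8 of the 9 members were lower with TGFb + galunisertib than with TGFb alone (7.34% of genes), the exception being *TGIF1*. The same held in PLC/PRF/5 for 7 of 8 (13.3% of genes), *PMEPA1* among them and again without *TGIF1*. That count was 4 to 6 with any 1 array left out, 4 by a plain two-sample t-test and 3, *SMAD7*, *SKIL* and *PMEPA1*, with arrays scaled to their median or not scaled. Galunisertib alone lowered 4 of 9 members in SNU-449, *SMAD7*, *SMAD6*, *SKIL* and *PMEPA1* (2.08% of genes fell; with quantile normalization 4 fell and 1, *BAMBI*, rose; by a plain two-sample t-test 1 fell), and 2 of 8 in PLC/PRF/5, *SMAD7* and *SKIL* (1.75%), where *TGIF1* rose (3.66% of genes rose). In PLC/PRF/5 0 of these 3 were called with arrays scaled to their median, not scaled or by the t-test. These comparisons share arrays: TGFb and galunisertib were set against the same controls, and TGFb + galunisertib against the same TGFb arrays that enter the first comparison.

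**Figure D1:**
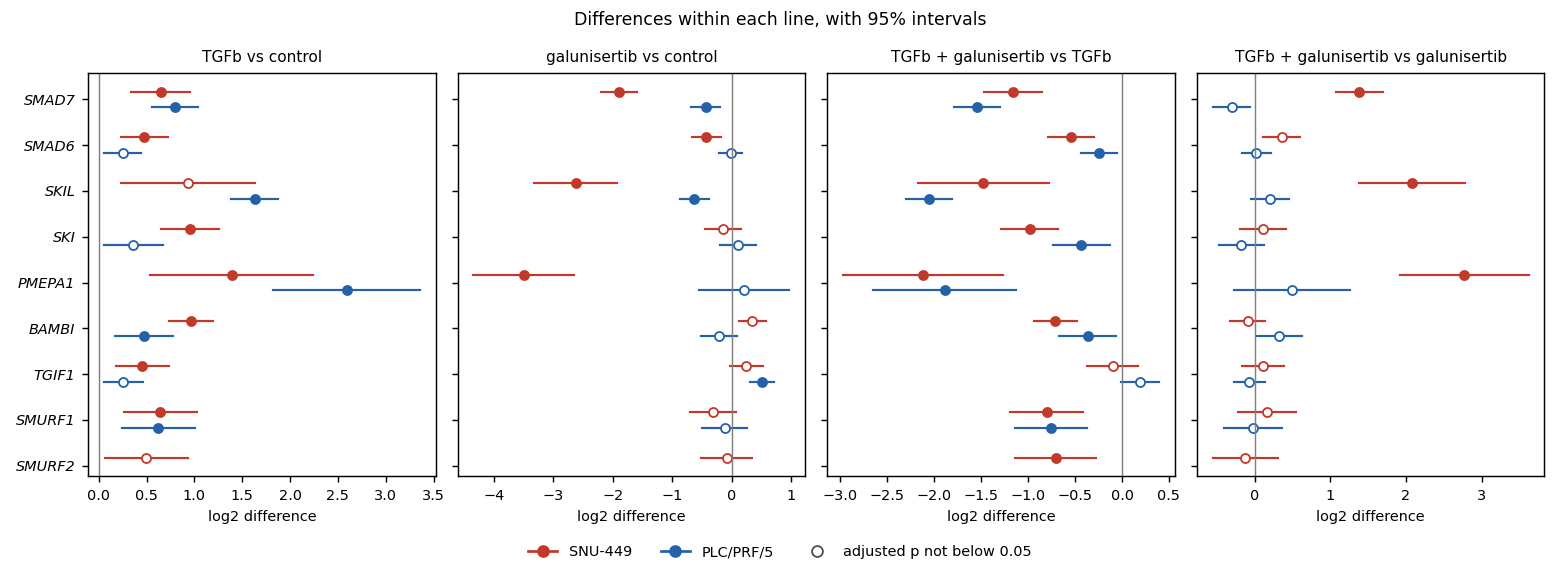
Log2 difference of each member (horizontal axis, with its 95% confidence interval) in 4 comparisons within SNU-449 (red) and PLC/PRF/5 (blue), with *PMEPA1* by the brighter probe of each line; filled points passed an adjusted p of 0.05 and open points did not. With TGFb all points lie above 0, and with galunisertib added to TGFb all but *TGIF1* in PLC/PRF/5 lie below 0.

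*SMAD7*, the inhibitory SMAD at the centre of the feedback loop, changed in all 4 comparisons in SNU-449. Its arrays read 3.06, 3.15 and 3.16 in control cells, 3.84, 3.73 and 3.76 with TGFb, 1.34, 1.01 and 1.34 with galunisertib and 2.59, 2.88 and 2.37 with both. No group overlapped another, and the 3 galunisertib arrays stood far below the rest. TGFb raised *SMAD7* 1.57-fold (log2 0.65, SE 0.13, adjusted p = 0.011, or 0.057 with arrays scaled to their median), and galunisertib lowered it 3.72-fold (log2 -1.90, SE 0.13, adjusted p = 0.00015), the fifth-smallest p of all genes in that comparison. TGFb given with galunisertib left it 2.24-fold lower than TGFb alone (adjusted p = 0.00022) but 2.61-fold higher than galunisertib alone (log2 1.38, adjusted p = 0.0013). The level with both agents therefore lay below the control level and above the galunisertib level.

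The *SMAD7* arrays of PLC/PRF/5 read 1.08, 0.94 and 1.06 in control cells, 1.73, 1.84 and 1.90 with TGFb, 0.54, 0.71 and 0.52 with galunisertib and 0.47, 0.30 and 0.07 with both. Here too the groups did not overlap, and the lowest group was TGFb + galunisertib. TGFb raised it 1.74-fold (log2 0.80, SE 0.11, adjusted p = 9e-04), and adding galunisertib left it 2.91-fold lower than TGFb alone (log2 -1.54, adjusted p = 4.6e-06). Galunisertib alone lowered it by less, 1.35-fold (log2 -0.44, adjusted p = 0.041), a call that ended without any 1 of 5 of the 6 arrays (all but galunisertib replicate 2, adjusted p 0.081 to 0.12) and under 8 other settings (0.055 to 0.97). Under galunisertib TGFb did not raise it, with a log2 difference of -0.31 (95% interval -0.55 to -0.06, adjusted p = 0.092). In order of level, the 8 groups ran from SNU-449 with TGFb down to PLC/PRF/5 with both agents, and the only neighbours whose arrays overlapped were SNU-449 with galunisertib and PLC/PRF/5 control cells.

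*SMAD6*, the inhibitory SMAD of the BMP branch, spanned a narrower range. In SNU-449 its arrays read 2.58, 2.64 and 2.68 in control cells, 3.03, 3.13 and 3.16 with TGFb, 2.29, 2.06 and 2.28 with galunisertib and 2.76, 2.53 and 2.40 with both. The TGFb arrays stood above and the galunisertib arrays below the controls, and the group with both overlapped the controls. It rose 1.39-fold with TGFb (log2 0.47, SE 0.11, adjusted p = 0.018) and fell 1.34-fold with galunisertib (log2 -0.43, adjusted p = 0.04). Without TGFb replicate 2 or 3 or control replicate 1 the rise lost its call (adjusted p 0.061 to 0.071), and the fall lost it without any 1 of the 6 arrays (0.061 to 0.095). TGFb + galunisertib was 1.46-fold below TGFb (adjusted p = 0.0059).

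*SMAD6* in PLC/PRF/5 read 2.13, 2.13 and 2.28 in control cells and 2.36, 2.49 and 2.45 with TGFb, which did not overlap but gave no call (log2 0.25, 95% interval 0.06 to 0.45, adjusted p = 0.075). Its arrays with galunisertib, 2.23, 2.04 and 2.23, and with both, 2.15, 2.29 and 2.12, lay within or around the controls. The fall from TGFb to TGFb + galunisertib passed (log2 -0.25, adjusted p = 0.039). This call ended without any 1 of 5 arrays (all but TGFb + galunisertib replicate 2, adjusted p 0.05 to 0.12). Of all 20 alternatives run, 12 ended it, with arrays scaled to their median among them (log2 -0.07, adjusted p = 0.83).

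**Figure D2:**
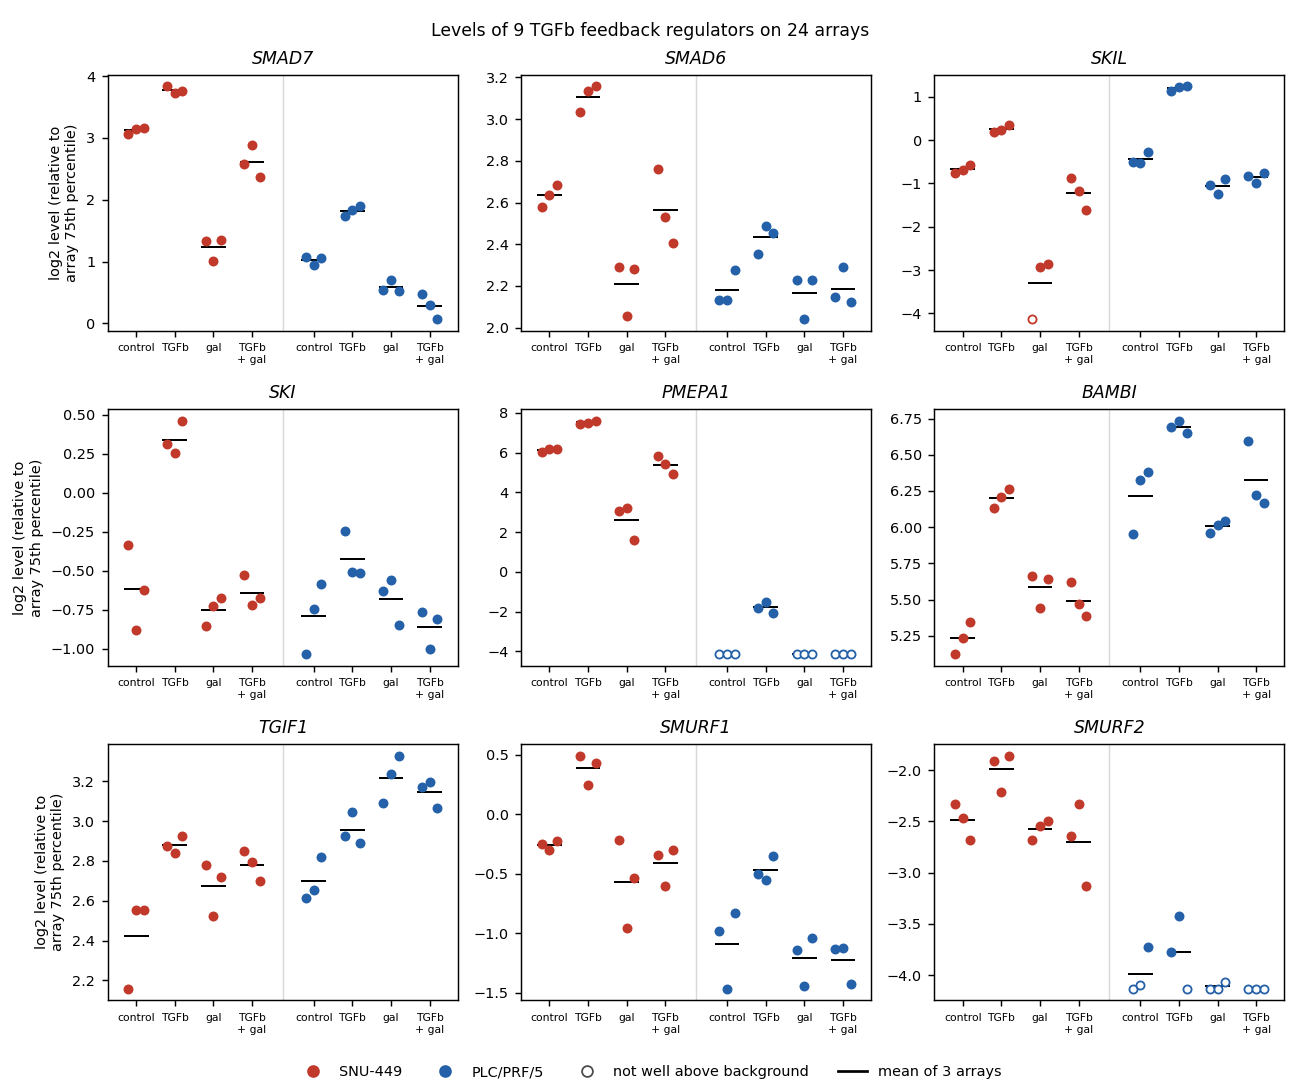
Log2 level of each member's brightest probe on every array (vertical axis, relative to the 75th percentile of the array) by line and treatment; points are the 3 arrays of a group, open where the probe was not well above background, and short lines their mean; gal is galunisertib, and *PMEPA1* is shown by A_24_P413126. For *SMAD7*, *SKIL* and *PMEPA1* the galunisertib arrays lie lowest in SNU-449, and for *SKI* only the SNU-449 TGFb arrays stand apart.

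*SKIL*, the SnoN co-repressor, had the clearest pattern of the nuclear factors. The PLC/PRF/5 arrays read -0.50, -0.53 and -0.28 in control cells, 1.13, 1.21 and 1.24 with TGFb, -1.04, -1.24 and -0.90 with galunisertib and -0.83, -0.99 and -0.76 with both. The TGFb arrays stood apart from all others, and the 2 groups with galunisertib overlapped each other below the controls. TGFb raised it 3.1-fold (log2 1.63, SE 0.11, adjusted p = 8.6e-06), and adding galunisertib left it 4.16-fold lower than TGFb alone (log2 -2.06, adjusted p = 8.9e-07). Galunisertib alone lowered it 1.54-fold (log2 -0.63, adjusted p = 0.0096, lost with the array median, no scaling, a plain two-sample t-test and all 24 arrays in the fit, 0.13 to 0.9), and TGFb under galunisertib gave a difference of 0.20 (95% interval -0.05 to 0.45, adjusted p = 0.23).

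In SNU-449 *SKIL* read -0.77, -0.70 and -0.57 in control cells and 0.18, 0.23 and 0.35 with TGFb. With galunisertib 1 array was at the floor (replicate 1) and the other 2, the only ones of that group well above background, read -2.92 and -2.86. With both agents it read -0.87, -1.18 and -1.61. No group overlapped another, and galunisertib alone gave the lowest arrays. Although the TGFb and control arrays lay well apart, the rise of 0.93 (95% interval 0.23 to 1.63) was not called (adjusted p = 0.083). The fit shares 1 spread over the 4 groups, the array at the floor included. The rise was called without scaling (adjusted p = 0.04), with normexp, a model-based background correction (0.0046), with all 24 arrays in the fit (0.0091) and by a plain two-sample t-test (0.013). Galunisertib lowered it 6.17-fold with the array at the floor entered as -4.13 (log2 -2.62, SE 0.30, adjusted p = 0.0011, or 0.11 by a plain two-sample t-test). With both agents it was 2.78-fold below TGFb alone (adjusted p = 0.0077) and 4.23-fold above galunisertib alone (log2 2.08, adjusted p = 0.0095). The normexp correction made the fall with galunisertib -1.25 and the rise from it 0.89, both still called. That correction adds 50 to the signal of each spot, which makes differences at low signal smaller.

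*SKI*, the proto-oncogene product related to SnoN, responded in SNU-449 to TGFb and not measurably to galunisertib alone. It read -0.34, -0.88 and -0.63 in control cells, 0.31, 0.25 and 0.46 with TGFb, -0.85, -0.73 and -0.68 with galunisertib and -0.53, -0.72 and -0.68 with both. Only the TGFb arrays stood apart. They were 1.94-fold above control (log2 0.95, SE 0.13, adjusted p = 0.0013), and the arrays with both agents were 1.98-fold below them (adjusted p = 0.00062). The galunisertib difference was -0.14 (95% interval -0.44 to 0.17, adjusted p = 0.56).

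*SKI* in PLC/PRF/5 read -1.03, -0.74 and -0.59 in control cells, -0.25, -0.51 and -0.52 with TGFb, -0.63, -0.56 and -0.85 with galunisertib and -0.76, -1.0 and -0.81 with both. The TGFb arrays were the highest but close to the others. The rise of 0.36 was not called (95% interval 0.06 to 0.67, adjusted p = 0.098), and the fall with galunisertib added to TGFb was (log2 -0.43, adjusted p = 0.023). Without TGFb + galunisertib replicate 2 or TGFb replicate 1 this fall lost its call (adjusted p 0.082 to 0.096), as it did with the array median (0.39) and no scaling (0.37).

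*TGIF1*, a homeodomain co-repressor, departed from the other members. On its brighter probe SNU-449 read 2.16, 2.55 and 2.56 in control cells, 2.88, 2.84 and 2.92 with TGFb, 2.78, 2.52 and 2.72 with galunisertib and 2.85, 2.80 and 2.70 with both. TGFb gave 1.37-fold higher levels (log2 0.46, SE 0.12, adjusted p = 0.035). This call was lost with the replicate number as a block (adjusted p = 0.064) and without any TGFb array or control replicate 1 (0.084 to 0.12), and the second probe showed a difference of 0.04 (adjusted p = 0.93). Adding galunisertib to TGFb changed it by -0.10 (95% interval -0.37 to 0.17, adjusted p = 0.65).

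*TGIF1* in PLC/PRF/5 was highest in the groups with the inhibitor. It read 2.61, 2.65 and 2.82 in control cells, 2.93, 3.05 and 2.89 with TGFb, 3.09, 3.23 and 3.33 with galunisertib and 3.17, 3.2 and 3.07 with both. The 3 galunisertib arrays lay above all control and TGFb arrays. Galunisertib raised it 1.43-fold (log2 0.52, SE 0.09, adjusted p = 0.0095), and it was the only member called higher with galunisertib alone in either line. The second *TGIF1* probe gave -0.16 for this comparison (adjusted p = 0.70), so the probes disagreed, and the rise was not called for the mean of both probes (0.18, adjusted p = 0.36), nor for the brighter probe with the array median, no scaling or a plain two-sample t-test (0.11 to 0.87). The second probe passed in no comparison within a line.

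*PMEPA1*, which encodes the membrane protein that sequesters SMAD2 and SMAD3, had the widest range of all members. In SNU-449 its brighter probe (A_24_P413126) read 6.05, 6.17 and 6.17 in control cells, 7.47, 7.5 and 7.60 with TGFb, 3.05, 3.23 and 1.62 with galunisertib and 5.85, 5.44 and 4.92 with both. The 4 groups were fully separated, with 1 galunisertib array (replicate 3) well below the other 2. Galunisertib lowered it 11.3-fold (log2 -3.50, SE 0.37, adjusted p = 0.00066, or 0.093 by a plain two-sample t-test). With both agents it was 4.34-fold below TGFb alone (log2 -2.12, adjusted p = 0.003) and 6.82-fold above galunisertib alone (log2 2.77, adjusted p = 0.0061). TGFb raised it 2.62-fold (log2 1.39, SE 0.37, adjusted p = 0.039). This call was lost without any 1 of the 6 arrays (adjusted p 0.086 to 0.12). The fit shares 1 spread over the 4 groups. Their SDs were 0.07 in control cells, 0.07 with TGFb, 0.88 with galunisertib and 0.47 with both.

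The second *PMEPA1* probe (A_33_P3403867), which lies in column 2 at the edge of the array, moved the same way in SNU-449. It rose with TGFb (log2 1.94, adjusted p = 0.01), fell with galunisertib (log2 -2.22, adjusted p = 0.0096), fell from TGFb to TGFb + galunisertib (log2 -1.91, adjusted p = 0.0072) and was higher with both agents than with galunisertib alone (log2 2.25, adjusted p = 0.019).

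*PMEPA1* in PLC/PRF/5 was near the floor without TGFb. On the probe A_24_P413126 the TGFb arrays read -1.80, -1.51 and -2.08 and all 9 others were at the floor, so that TGFb levels were at least 4.34-fold above control and at least 5.04-fold above TGFb + galunisertib. These bounds take, on each dim array, the higher of the floor and the lowest level well above background there. The probe that represents the gene in this line, A_33_P3403867, read -1.27, -1.14 and -1.43 with TGFb and -3.42, -3.27 and -2.82 with both. Its control arrays, -3.47, -4.01 and -4.13, were not well above background, and of the galunisertib arrays, -4.09, -4.13 and -2.76, 1 was. The TGFb arrays stood clear of every other array on both probes. *PMEPA1* was at least 6.02-fold higher with TGFb than in control cells on this probe (adjusted p = 0.00072) and 3.70-fold lower with both agents than with TGFb (log2 -1.89, adjusted p = 0.0014). With the normexp background correction, which adds 50 to each signal, both were smaller and still called (log2 0.88 and -0.80).

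*BAMBI*, the pseudoreceptor, was at a high level for its probe in both lines, and TGFb added to it. SNU-449 read 5.12, 5.24 and 5.34 in control cells, 6.13, 6.21 and 6.27 with TGFb, 5.66, 5.44 and 5.64 with galunisertib and 5.62, 5.47 and 5.38 with both. TGFb gave the highest arrays, and those with galunisertib, alone or with TGFb, lay between them and the controls. It rose 1.95-fold with TGFb (log2 0.97, SE 0.10, adjusted p = 0.00018) and was 1.64-fold lower with both agents than with TGFb (adjusted p = 0.00078). Unlike *SMAD7*, *SKIL* and *PMEPA1*, it did not fall with galunisertib alone: its difference was 0.35, above the controls (95% interval 0.12 to 0.58, adjusted p = 0.061). It was called without galunisertib replicate 2 (0.42, adjusted p = 0.034), with quantile normalization (0.33, adjusted p = 0.047), with the normexp correction (0.35, adjusted p = 0.04) and with all 24 arrays in the fit (adjusted p = 0.046).

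*BAMBI* in PLC/PRF/5 read 5.95, 6.32 and 6.38 in control cells, 6.69, 6.73 and 6.65 with TGFb, 5.96, 6.01 and 6.04 with galunisertib and 6.59, 6.22 and 6.16 with both. The TGFb arrays were above all others. The rise of 0.47 passed (SE 0.13, adjusted p = 0.037) but not with the replicate number as a block (adjusted p = 0.064), nor without any TGFb array or control replicate 1 or 2 (0.059 to 0.1). Its fall with galunisertib added to TGFb (log2 -0.37, adjusted p = 0.047) was lost without any 1 of 5 arrays (all but TGFb + galunisertib replicate 1, 0.084 to 0.15). Of all 20 alternatives run, 13 ended this call, with arrays scaled to their median among them (log2 -0.19, adjusted p = 0.55).

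*SMURF1*, a ubiquitin ligase, rose with TGFb in both lines. In SNU-449 it read -0.25, -0.30 and -0.22 in control cells, 0.49, 0.25 and 0.43 with TGFb, -0.22, -0.96 and -0.54 with galunisertib and -0.35, -0.60 and -0.30 with both. The PLC/PRF/5 arrays read -0.98, -1.46 and -0.83, then -0.50, -0.55 and -0.35, then -1.14, -1.44 and -1.04, and -1.13, -1.12 and -1.43 in the same order of groups. The TGFb arrays were the highest in both lines, while the groups with galunisertib overlapped each other. The rise was 0.65 in SNU-449 (SE 0.17, adjusted p = 0.035) and 0.62 in PLC/PRF/5 (SE 0.17, adjusted p = 0.032), and the fall with galunisertib added to TGFb was -0.80 (adjusted p = 0.008) and -0.76 (adjusted p = 0.0046, but 0.074 with the array median and 0.076 with no scaling). Both rises were near the threshold. The rise in SNU-449 was lost without any 1 of the 6 arrays (0.062 to 0.11), and the rise in PLC/PRF/5 without any TGFb array or control replicate 1 or 2 (0.053 to 0.12).

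*SMURF2*, its paralog, was dim. SNU-449 read -2.33, -2.46 and -2.68 in control cells, -1.91, -2.21 and -1.86 with TGFb, -2.68, -2.54 and -2.50 with galunisertib and -2.64, -2.33 and -3.13 with both. The TGFb arrays were above the others, but the rise of 0.50 was not called (95% interval 0.06 to 0.93, adjusted p = 0.13). The fall with galunisertib added to TGFb was called (log2 -0.71, adjusted p = 0.028), and was lost without replicate 1 or 3 of either group (0.057 to 0.1). In PLC/PRF/5 *SMURF2* was well above background on 1 control array, 2 TGFb arrays and 0 arrays of the other groups and was not tested.

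The second question was whether galunisertib removed the response to TGFb. In PLC/PRF/5, TGFb added to galunisertib changed 0 of 8 members (limma), against 8.55% of genes. At an unadjusted p below 0.05, 2 members differed, *SMAD7* with -0.31 and *BAMBI* with 0.32, and a plain two-sample t-test called 0. In SNU-449, 3 of 9 members, *SMAD7*, *SKIL* and *PMEPA1*, rose when TGFb was added to galunisertib, against 0.938% of genes, and 4 had arrays above and not overlapping those with galunisertib alone, against 5.63%. The 3 calls were not made by a plain two-sample t-test (adjusted p 0.21 to 0.28), which takes its spread from 6 arrays alone.

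The difference between the TGFb effect with and without galunisertib was tested as an interaction. In PLC/PRF/5 the TGFb effect was smaller under galunisertib for *SMAD7* by -1.10 (SE 0.15, adjusted p = 0.0024), for *SKIL* by -1.43 (adjusted p = 0.00063) and for *PMEPA1* by -2.10 (adjusted p = 0.023), while 4.29% of genes were called in this direction. The *SMAD7* call was lost with the array median (adjusted p = 0.094) and with no scaling (0.28), and the *SKIL* call with no scaling (0.067). The *PMEPA1* value rests on a control level near the floor (-0.81 with the normexp correction), and its call was lost without TGFb replicate 1 or 2, control replicate 2 or 3 or TGFb + galunisertib replicate 1 (adjusted p 0.054 to 0.057). In SNU-449 it was smaller for *BAMBI*, by -1.06 (SE 0.14, adjusted p = 0.0032), and for *SKI*, by -0.84 (SE 0.19, adjusted p = 0.046), against 1.82% of genes. The *BAMBI* call was lost with the array median (0.06), and the *SKI* call without any array but control replicate 1 (0.064 to 0.13).

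For *SMAD7*, *SKIL* and *PMEPA1* in SNU-449 the TGFb effect was not smaller under galunisertib. It was 1.38 with and 0.65 without the inhibitor for *SMAD7*, 2.08 and 0.93 for *SKIL*, and 2.77 and 1.39 for *PMEPA1*. The differences of 0.73, 1.15 and 1.38 were not called over the 12 arrays of the line (adjusted p 0.079, 0.21 and 0.21) and were called with all 24 arrays in the fit (0.012, 0.04 and 0.041). *SMAD7* was also called in the 12-array fit with the percentile taken over commonly detected probes, those well above background on each of the 24 arrays (adjusted p = 0.045), which gives 1 higher and 1 lower member in place of 0 and 2, and without TGFb + galunisertib replicate 3 (0.046). The second *PMEPA1* probe gave 2.25 with and 1.94 without the inhibitor, and its difference of 0.31 was not called (SE 0.53, adjusted p = 0.81). Galunisertib had lowered these genes below control in this line, so the rise under it started from a lower level.

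**Figure D3:**
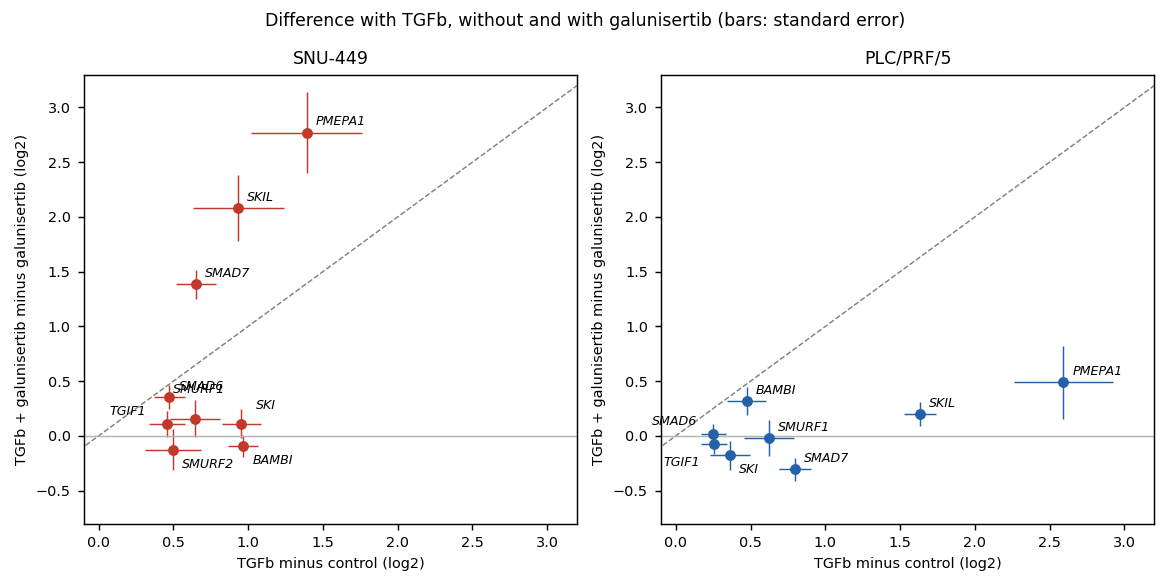
TGFb effect without galunisertib (horizontal axis, log2 difference TGFb minus control) against the TGFb effect under galunisertib (vertical axis, log2 difference TGFb + galunisertib minus galunisertib) for each member, in SNU-449 and PLC/PRF/5, with standard errors and the line of equal effects. In SNU-449 *SMAD7*, *SKIL* and *PMEPA1* lie above that line, and in PLC/PRF/5 every tested member lies below it.

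The third question was how the lines differed. Between control cells, 7 of 9 members differed, close to the 68.5% of 17900 genes that did so. *PMEPA1* and *SMURF2* entered this test through SNU-449, where they are high, and had to differ, so 5 of the other 7 is the count to read. *PMEPA1* was at least 1055-fold lower in PLC/PRF/5, where it was at the floor (log2 -7.67 with the normexp correction), and at least 110.5-fold lower on its second probe. *SMAD7* was 4.28-fold lower (log2 -2.10, SE 0.12, adjusted p = 5.8e-12), and *SMURF1* (log2 -0.84) and *SMAD6* (-0.45) were lower too. *SMURF2* gave -1.50, a value that depends on the floor, with 1 of 3 PLC/PRF/5 arrays well above background, and -0.42 with the normexp correction. *BAMBI* was 1.98-fold higher in PLC/PRF/5 (adjusted p = 3.3e-07) and *TGIF1* 1.21-fold higher (adjusted p = 0.023). The *TGIF1* difference was lost without SNU-449 control replicate 1 or PLC/PRF/5 control replicate 3 (adjusted p 0.1 to 0.19) and turned to -0.10 with each array scaled to its median, which moved the median of all genes by -0.342 and gave 1 higher and 6 lower members in place of 2 and 5. Without any scaling 1 was higher and 5 lower. The second *TGIF1* probe was higher in PLC/PRF/5 by 0.98 (SE 0.20, adjusted p = 0.00026). *SKIL* (0.24, 95% interval -0.26 to 0.74) and *SKI* (-0.17, 95% interval -0.46 to 0.11) did not pass.

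The effect of TGFb was not shown to differ between the lines for any member. Of 9 differences of effects, SNU-449 minus PLC/PRF/5, 0 passed in limma's fit of 24 arrays, against 8.62% of genes, and 3 had an unadjusted p below 0.05. These were *SKI* (0.59, adjusted p = 0.06), *BAMBI* (0.49, adjusted p = 0.074) and *PMEPA1* (-0.95, adjusted p = 0.18). The *PMEPA1* value takes a rise in PLC/PRF/5 from control arrays at the floor and moves with it. It was -1.95 and called with a floor at 50% of that used (adjusted p = 0.0046), and 0.61 with the normexp correction. For *SMAD7* the difference was -0.15 (95% interval -0.51 to 0.21), and for *SKIL* -0.70 (95% interval -1.40 to 0.01).

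The effect of galunisertib did differ. Its fall was larger in SNU-449 for 3 members, against 2.44% of genes. The differences were -1.46 for *SMAD7* (SE 0.17, adjusted p = 3e-05), -2.0 for *SKIL* (adjusted p = 0.001, or -0.83 with the normexp correction) and -3.50 for *PMEPA1* (adjusted p = 2.5e-05). The *PMEPA1* value is the SNU-449 fall alone, as PLC/PRF/5 was at the floor on this probe and no fall could be measured. It cannot count as a difference between the lines, so *SMAD7* and *SKIL* are the calls to read. The second *PMEPA1* probe gave -2.43 (adjusted p = 0.01), and the authors' normalized values gave no call for *PMEPA1* (log2 -3.80, adjusted p = 0.06). With the percentile over commonly detected probes 4 members were lower and 1, *BAMBI*, was higher (0.57, adjusted p = 0.019), and with quantile normalization 3 and 1. The TGFb effect under galunisertib was also larger in SNU-449, by 1.69 for *SMAD7* (adjusted p = 3.5e-05), 1.88 for *SKIL* (adjusted p = 0.0048, or 0.82 with the normexp correction) and 2.77 for *PMEPA1* (adjusted p = 0.00088), while 1.47% of genes were called in this direction. Here too the *PMEPA1* value is that of SNU-449 alone, and *SMAD7* and *SKIL* are the calls to read. The second *PMEPA1* probe gave 1.75 (adjusted p = 0.076). *PMEPA1* lost its call with the authors' values (log2 2.39, adjusted p = 0.19) and *SKIL* with the array median (0.059).

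Other genes of the pathway were read from 4 lists to set the members beside them. Of 12 TGFb target genes, matrix and cytoskeletal genes and immediate transcription factors, 12 were tested in SNU-449. With TGFb 10 rose and 0 fell, with a list median of 1.19, while 5.72% of all genes rose. Among the 10 were *TGFBI* (1.58) and *CCN2* (1.53), both matrix proteins, and *JUNB* (1.54), an AP-1 factor. Galunisertib alone lowered 7 of these 12 (2.08% of all genes), *COL1A1* by -2.61 among them. From TGFb to TGFb + galunisertib 10 fell (7.34% of all genes). Under galunisertib, TGFb raised 4 of the 12 (0.938% of all genes), among them *COL1A1* (1.63), *JUNB* (1.46) and *LTBP2* (0.91). Of the 12, 9 were tested in PLC/PRF/5, where 6.27% of all genes rose with TGFb and 1.75% fell with galunisertib alone. With TGFb 4 rose (*TPM1* 1.11, *JUNB* 0.92, *KLF10* 0.82 and *TGFBI* 0.73) and 1 fell, *CCN2* (-0.82). Galunisertib alone lowered 1, *COL4A1* (-0.52).

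Of 16 core components of the pathway, ligands, receptors and SMADs, 12 were tested in SNU-449 and 14 in PLC/PRF/5. In SNU-449, 9 of the 12 were not called with TGFb. With TGFb, *TGFB1*, the ligand itself, rose in both lines (1.38 and 0.74), *TGFBR1* rose in SNU-449 (0.63) and *SMAD3* in PLC/PRF/5 (0.56), while *TGFBR2*, the type II receptor, fell in SNU-449 (-0.72) and *ACVR1B* in PLC/PRF/5 (-1.03). Of 13 other inhibitors of the pathway, 12 were tested in SNU-449, and 10 of these were not called with TGFb. *LDLRAD4*, which encodes a relative of the PMEPA1 protein, rose there by 3.00 with TGFb and fell by 3.83 when galunisertib was added. *NEDD4L*, another ubiquitin ligase of the pathway, fell in SNU-449 (-0.40) and rose in PLC/PRF/5 (0.60). In the latter line 2 of 11 rose (6.27% of all genes) and 1 fell with TGFb. Of 8 BMP target genes, 7 were tested in SNU-449, where 5.72% of all genes rose with TGFb. There 3 rose, *ID1*, *ID3* and *NOG* (1.72, 1.08 and 2.63). In PLC/PRF/5 4 of 5 fell, *ID3* (-1.54), *ID4* (-1.34), *ID1* (-1.0) and *ID2* (-0.67). The 5th percentile of the TGFb differences of all genes in that line was -0.47.

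**Figure D4:**
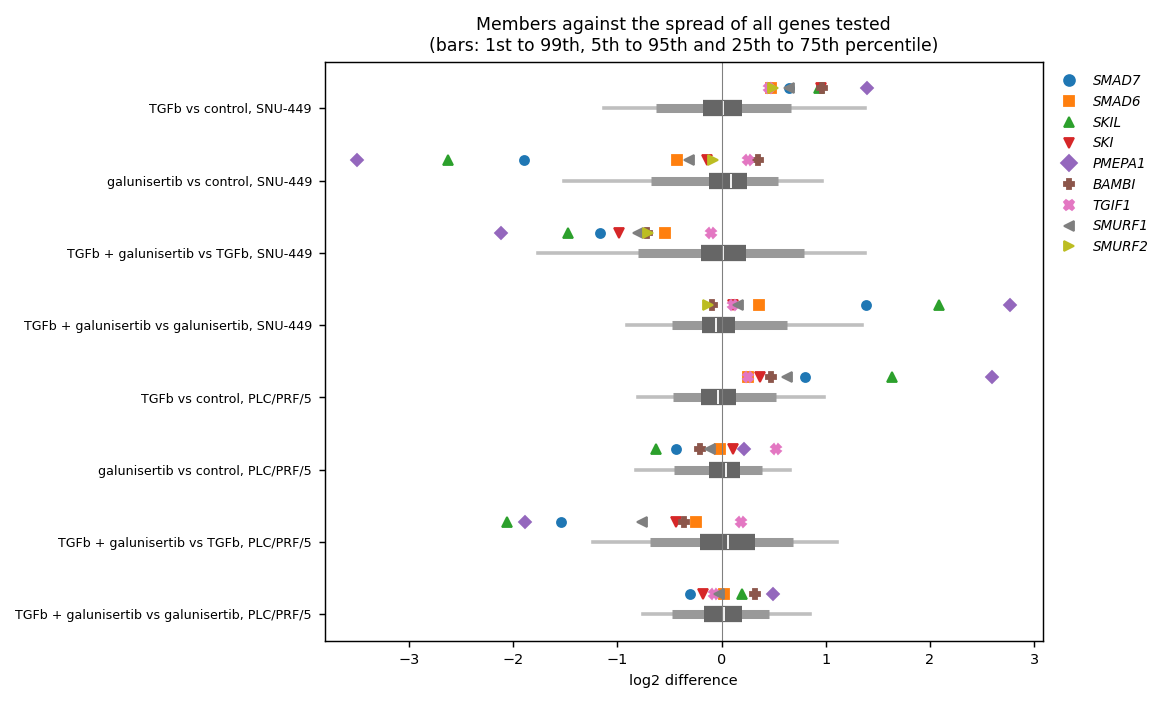
Log2 difference of each member (points, horizontal axis) in 8 comparisons beside the spread of all genes tested (grey bars, the widest from the 1st to the 99th percentile and the narrowest from the 25th to the 75th, with the median as a white mark). With TGFb in SNU-449 the members have a median of 0.65 and all genes one of 0.02.

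Likeness between genes was measured as Pearson's r over all 24 arrays after removing the mean of each line, over 12735 genes well above background on all arrays, to which a member was added where it was not. The 3 nearest genes of *SMAD7* were *FSTL3* (0.95), *LITATS1* (0.95) and *LTBP3* (0.94), those of *SMAD6* were *GADD45B* (0.96), *EML1* (0.94) and *PLEKHO1* (0.93), and those of *PMEPA1* were *FSTL3* (0.97), *ADGRG1* (0.95) and *CDC42SE1* (0.95). *SKIL* was nearest to *DNAJB2* and *SMAD7* (both 0.95) and *LOXL4* (0.94). *SMURF1* was nearest to *FBXO32* (0.91), and *BAMBI* to a long non-coding RNA and *ITGA1* (0.92). *TGIF1* (0.86, *SHQ1*) and *SMURF2* (0.81, *EFNA4*) had the lowest values. Among the members, *SMAD7*, *SKIL* and *PMEPA1* were the most alike, with 0.93 to 0.95 for their 3 pairs. These values share arrays and treatments and are a description only.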

How the data were processed

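Expression was measured on 24 single-colour Agilent arrays, 3 per treatment and line, grouped by the sample labels. The authors deposited, per array, Feature Extraction 10.7.3.1 output with a processed signal, a linear intensity from which background had been subtracted within the array, with no normalization across arrays. They also deposited a table of log2 values for 30913 probes. On 19258 probes, its differences between arrays correlated at 0.999 with those of the scaled intensities (across probes, slope 1.00), and every probe had a median of about 0. It served as an alternative only.

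Non-control spots without outlier flags were averaged per probe, divided by the array's 75th percentile, floored (median over arrays of the lowest level well above background) and log2-transformed. 0 spots were saturated, and 111 to 216 per array were flagged. Probes were named by accession through RefSeq (31104) or by LNCipedia name (10719), and 16378 stayed unnamed. Tests took genes with a probe called well above background on all 3 arrays of some group. The brightest such probe stood for the gene, and for *PMEPA1* the fit of PLC/PRF/5 used another probe than the other fits. limma 3.58.1 (R 4.3.3) was fitted over 12 arrays within a line and 24 between lines, with Benjamini-Hochberg adjustment over all genes and 95% intervals from its SE and the residual degrees of freedom. The study's random variance t-test shares spread between genes, so limma was used, with a plain two-sample t-test as an alternative. The steps were tested on simulated data.

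The members, gene lists and tests were chosen with earlier results of these data known. Named genes are the 9 members, list genes that passed and the 3 genes most like each member. Values of 1 list gene are not reported here. Comparisons were read as paired where deviations from group means correlated above 0.1 in all 3 same-numbered pairs. They were TGFb + galunisertib against TGFb in SNU-449 (0.10 to 0.27) and TGFb against control (SNU-449 0.13 to 0.22, PLC/PRF/5 0.17 to 0.30). The main tests leave the replicate number out in all comparisons. The replicate number is also the slide. No 2 arrays held identical values. The alternatives were other background corrections, scalings, floors and filters, other uses of probes, arrays left out in turn, a replicate block and other fits. For the normexp background correction the median spot signal took the place of the mean signal that was planned. Its offset of 50, added to every spot, shrinks differences at low signal. With 3 arrays a group, precision is limited by their number.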

Additional observations from a re-analysis of the deposited data

Results flagged for a closer look

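For *SMAD7* and *SKIL* the effect of galunisertib was not the same in the lines when that difference was tested. Taken as SNU-449 minus PLC/PRF/5, it was -1.46 for *SMAD7* and -2.0 for *SKIL* on the log2 scale. For the same genes the effect of TGFb under galunisertib differed by 1.69 and 1.88. *PMEPA1* was called too, with -3.50 and 2.77, but cannot count as a difference between the lines. These 2 differences use the same galunisertib arrays, so they are not independent of each other. For *SKIL*, 1 of the 3 SNU-449 galunisertib arrays was at the floor. For *PMEPA1* the arrays of PLC/PRF/5 in question were all at the floor, so its values are those of SNU-449 alone.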

How the results depend on the processing

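Of the 55 member differences that passed, 23 kept their call under every alternative run and 32 lost it under at least 1, 16 of them with an adjusted p below 0.01 as reported, and 1 of the 32 also reversed. No setting turned a passed difference within a line, and *SMAD7* kept its call under every alternative run for galunisertib in SNU-449, for TGFb in PLC/PRF/5 and for galunisertib added to TGFb in both lines. Quantile normalization ended 0 of the 55 calls, scaling to the array median 20, the 1 reversed included, and no scaling 16. Scalings moved the median of all genes by -0.342 to 0.25, the most for the control cells of the 2 lines with the array median and for TGFb in PLC/PRF/5 with no scaling.

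With each array scaled to its median, the members called were 3 for TGFb in SNU-449, 0 for the interaction there, and in PLC/PRF/5 3 for TGFb, 0 for galunisertib and 3 for galunisertib added to TGFb. With no scaling they were 1 for the interaction in each line and, in PLC/PRF/5, 3 for TGFb, 0 for galunisertib and 3 for galunisertib added to TGFb. With no filter on dim probes 4 were called for TGFb in SNU-449, 3 for TGFb in PLC/PRF/5 and 1 for the SNU-449 interaction, where the authors' values, a floor at 50% of that used, and every probe tested by itself also gave 1, and all 24 arrays in the fit gave 5. The percentile over commonly detected probes (well above background throughout) gave 1 for TGFb + galunisertib against galunisertib in PLC/PRF/5 and 5 for the difference of galunisertib effects. For the difference of TGFb effects, the normexp background correction and the 50% floor each gave 1. Testing those probes alone leaves out *SKIL* and *PMEPA1* and gave 1 for the difference of galunisertib effects and 1 for that of TGFb effects under galunisertib. The latter comparison and its alternatives were chosen after seeing the data. A plain two-sample t-test, after Benjamini-Hochberg adjustment, gave 1 for galunisertib and 0 for TGFb added to galunisertib in SNU-449, and 3 for TGFb, 0 for galunisertib and 4 for galunisertib added to TGFb in PLC/PRF/5. At the fold and p limits of the figure legends it gave 1 (*PMEPA1*), 1, 0 and 0 in SNU-449. The order is TGFb, galunisertib, galunisertib added to TGFb and TGFb added to galunisertib. In that order it gave 2, 0, 3 and 0 in PLC/PRF/5, and it gave 3 between the control cells.

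With 1 array left out at a time, counts in SNU-449 ranged over 3 to 5 for TGFb, 3 to 4 for galunisertib, 7 to 8 for galunisertib added to TGFb, 3 to 3 for TGFb added to galunisertib and 1 to 2 for the interaction. In PLC/PRF/5 they were 3 to 5, 2 to 3, 4 to 6, 0 to 1 and 2 to 3. The count of 1 for TGFb added to galunisertib came without galunisertib replicate 3 (*PMEPA1*, 0.94, adjusted p = 0.033), and that of 4 for galunisertib added to TGFb without TGFb replicate 1. Between the lines they were 6 to 7 for control cells, 0 to 2 for the TGFb effects, 3 to 4 for the galunisertib effects and 3 to 3 for the TGFb effects under galunisertib. The count of 2 came without PLC/PRF/5 control replicate 1, and leaving out SNU-449 control replicate 1 or PLC/PRF/5 TGFb replicate 1 gave 1 (*SKI*).

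With the replicate number as a block, the paired comparisons called 6 members for TGFb and 8 for galunisertib added to TGFb in SNU-449 and 4 for TGFb in PLC/PRF/5, and beyond *TGIF1* and *BAMBI* it changed no other call in them. In the others same-numbered arrays share a slide too, but were not shown to be paired. There the block gave 3, 3 and 1 in SNU-449 (galunisertib, TGFb added to galunisertib, interaction). It gave 2, 5, 0 and 3 in PLC/PRF/5 (galunisertib, galunisertib added to TGFb, TGFb added to galunisertib, interaction), and 7, 0, 3 and 3 between the lines. In SNU-449 it ended the calls of *SMAD6* for galunisertib and *SKI* for the interaction (both adjusted p = 0.066, limma). In PLC/PRF/5 it ended those of *SMAD7* for galunisertib (0.067) and of *SMAD6* (0.061) and *BAMBI* (0.074) for galunisertib added to TGFb.

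The sign turned for *TGIF1* between control cells with the array median (-0.096), and otherwise for values that did not pass. For galunisertib these were *SMURF2* in SNU-449 (normexp 0.016) and *SMAD6* in PLC/PRF/5 (normexp 0.0026, array median 0.081, no scaling 0.041, authors' values 0.0049). For *TGIF1*, the mean of all probes gave 0.0013 for galunisertib added to TGFb in SNU-449 and -0.0041 for TGFb in PLC/PRF/5, and quantile normalization gave -0.0036 for galunisertib added to TGFb in PLC/PRF/5. For TGFb added to galunisertib, the array median gave -0.010 for *SKI* and -0.013 for *TGIF1* in SNU-449, and in PLC/PRF/5 values were 0.057, 0.037 and 0.12 for *TGIF1* (normexp, array median, no scaling), 0.089, 0.17 and 0.025 for *SMURF1* (array median, no scaling, quantile), 0.017 for *SKI* (no scaling) and -0.035 and -0.020 for *SMAD6* (percentile over commonly detected probes, quantile). Between control cells *SKIL* was -0.13 with the array median. The difference of TGFb effects was 0.61 for *PMEPA1* (normexp) and -0.096, -0.065 and -0.065 for *SMURF1* (no scaling, percentile over commonly detected probes, quantile). Under galunisertib it was 0.0011, 0.023 and 0.060 for *SMURF2* (normexp, authors' values, 50% floor) and -0.050 for *TGIF1* and -0.052 for *SMURF1* (array median). The cause was not tested.

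With 1 array left out, signs also turned among values that did not pass. In SNU-449 galunisertib gave -0.27 to 0.0016 for *SKI* and -0.18 to 0.00087 for *SMURF2*, and TGFb added to galunisertib -0.037 to 0.33 for *SMURF1* and -0.31 to 0.088 for *SMURF2*. In PLC/PRF/5 galunisertib gave -0.047 to 0.047 for *SMAD6*, -0.016 to 0.21 for *SKI*, -0.24 to 0.45 for *PMEPA1* and -0.30 to 0.016 for *SMURF1*, and TGFb added to galunisertib -0.041 to 0.054 for *SMAD6* and -0.14 to 0.079 for *SMURF1*. Between the lines *SMURF1* ranged over -0.11 to 0.21 for the TGFb effects and -0.016 to 0.35 for those under galunisertib, and *SMURF2* over -0.086 to 0.13 for the galunisertib effects and -0.29 to 0.11 for the TGFb effects under galunisertib. Signal was close to background for *SMURF2* in PLC/PRF/5, for *PMEPA1* there except with TGFb alone, and for *SKIL* on 1 SNU-449 array with galunisertib. In SNU-449 *SMURF2* was dim but well above background on every array. The cause of the turned signs was not tested.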
